A study of Homo sapiens with 105 samples.

Results

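Vaginal epithelial cells of the Vk2/E6E7 line were exposed for 6 h to nonoxynol-9 (N-9) at 12.5 μg/ml or to hydroxyethyl cellulose (HEC), the polymer of a placebo gel, at 1 mg/ml, and their mRNA was profiled on Affymetrix U133 Plus 2.0 arrays. The comparison used 18 of the 105 arrays of the series, 9 titled as N-9-treated and 9 titled as HEC-treated, with no untreated array among them. Vk2/E6E7 is a single line of vaginal keratinocytes immortalized with papillomavirus E6 and E7, grown in serum-free keratinocyte medium, and both groups share that background. The labels give the doses separately and do not say whether N-9 was dissolved in HEC, and HEC is treated here as a second agent. Without untreated cells a difference between the groups does not tell which side moved, and "higher" and "lower" below mean N-9 relative to HEC.

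N-9 is a non-ionic detergent once used as a spermicide. It inserts into membranes, whereas HEC is a thickening polymer. Keratinocytes that meet membrane or protein-folding stress are known to use several routes. The integrated stress response raises the transcription factor ATF4 and its targets, the unfolded protein response of the endoplasmic reticulum (ER) raises chaperones through ATF6 and XBP1, and MAP kinase and NFkB signalling switch on immediate early genes, chemokines and prostaglandin synthesis. A separate programme, the interferon-stimulated genes, encodes antiviral proteins and is driven by STAT and IRF factors.

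Of 54613 probesets tested with limma and Benjamini-Hochberg adjustment over all of them, 912 (1.67%) had an adjusted p under 0.05 and a fold over 2. In the N-9 arrays 599 of these were higher (1.1% of the probesets tested), naming 388 genes, and 313 were lower (0.573%), naming 224 genes. The median log2 difference was 1.53 over the higher calls and −1.34 over the lower ones, against −0.02 over all probesets. The 9 N-9 and the 9 HEC values did not overlap at 281 of the 599 and at 93 of the 313, where over the whole array 0.786% of probesets lay apart with N-9 higher and 0.674% with N-9 lower.

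Arrays with replicate numbers 1 to 3, 4 to 6 and 7 to 9 varied together in both groups, and each such set of 3 is called a run here, although the labels do not say what its arrays shared. The deviations of 2 N-9 arrays from their mean correlated at a median of 0.68 within a run and −0.48 between runs. Among the HEC arrays the medians were 0.65 and −0.47, and N-9 and HEC arrays of the same run correlated at a median of 0.36. Deviations from a group's own mean cancel out over its arrays. The negative medians between runs therefore follow in part from the centring and do not show that runs moved oppositely. With runs as a random block, 256 probesets were called higher and 78 lower, all of them among the calls above. In that fit each run of each group was a block of its own, so N-9 and HEC arrays of the same run were not paired. With the run as a fixed block, which compares N-9 and HEC inside each run, 1016 were called higher and 655 lower, and these included every call above. A fit on the 3 run means of each group called 0 in either direction, with 4392 probesets at an unadjusted p under 0.05 against 8565 in the fit over arrays. Each title gives a biological replicate number, with nothing on whether these were separate cultures, so the p-values rest on array-to-array spread, part of which may be technical. The sign was the same in all 3 runs at 587 of the 599 higher and 305 of the 313 lower probesets.

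Keratinocyte markers were high in every array. KRT5 had a log2 signal of 14.32, 14.68 and 14.78 (lowest, median and highest) in the N-9 arrays and 14.63, 14.75 and 14.95 in the HEC arrays, and 0 of 9 squamous markers differed. The summed signal of that list was 162000 to 175000 in N-9 arrays and 168000 to 195000 in HEC arrays. Leukocyte markers summed to 591 to 1750 in N-9 arrays and 648 to 1260 in HEC arrays, with 7 of 9 dim in both groups, that is, at a mean log2 signal under 7. The corresponding sums were 1680 to 2270 and 1790 to 4530 for fibroblast and endothelial markers, and 391 to 802 and 411 to 667 for melanocyte markers. Not dim were 3 of 10 fibroblast and endothelial, 2 of 5 melanocyte and 4 of 6 glandular markers. The highest mean levels in these lists were 10.37, 7.13 and 10.30. Glandular markers summed to 1910 to 2760 in N-9 arrays and 1830 to 2190 in HEC arrays, and 1 of these 6, the transcription factor FOXA2, was higher by 1.92 on the log2 scale (adjusted p = 0.0305, limma; 0.145 with runs as a random block). FOXA2 also lost its call without N-9 replicate 1, 7, 8 or 9 or HEC replicate 7 or 9. Array medians did not differ detectably, at 6.57 to 6.97 in N-9 arrays and 6.46 to 7.08 in HEC arrays (exact two-sided permutation p = 0.984). The 3′ minus 5′ signal of GAPDH was 0.36 in the third N-9 run and between −0.24 and −0.20 in the other 5 runs, with means of −0.02 ± 0.29 in N-9 arrays and −0.23 ± 0.05 in HEC arrays (SD, n = 9 each, exact permutation p = 0.0438, adjusted 0.131 over 3 measures). The part of that run's RNA quality in the results below was not tested, and values are therefore given by run where the runs differ. The permutation tests took the arrays as independent, although arrays of a run varied together.

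Some genes of the integrated stress response were higher with N-9 and others did not pass. Of 29 measured ATF4 targets and amino acid genes, 14 were higher in N-9 arrays and 0 lower at an adjusted p under 0.05 (limma), where over all 19775 genes, each taken at its brightest probeset, 2.31% passed as higher and 2.44% as lower. The median log2 difference of the list was 0.94, against −0.02 over all probesets. With runs as a random block 13 passed as higher, against 0.839% of all genes (0.415% as lower), and with the run as a fixed block 19, against 6.41% (8.13% as lower). The groups did not overlap at 13 members. The shares over all genes given here are those to set beside the counts of every list below in the same fit.

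DDIT3, the CHOP transcription factor that acts below ATF4, had log2 signals of 12.14, 12.99 and 13.71 in the N-9 arrays, and 7.57, 7.98 and 8.09 in the HEC arrays. Every N-9 array was more than a full log2 unit above every HEC array. The log2 difference was 5.03 ± 0.18 (SE, n = 9 each), a fold of 32.6 (adjusted p = 5.54e-12, limma), and it was 4.50, 5.52 and 5.06 in the 3 runs. CHAC1, an enzyme that breaks down glutathione, had 9.66, 10.28 and 10.90 in the N-9 arrays and 4.03, 5.07 and 6.37 in the HEC arrays. The N-9 values again lay apart from the HEC values, which were dim. The log2 difference of CHAC1 was 5.03 ± 0.29 (adjusted p = 5.21e-09, limma). GDF15, a stress-induced secreted cytokine, had 9.40, 10.42 and 12.23 in the N-9 arrays and 2.92, 6.37 and 7.08 in the HEC arrays, where it was dim on average. It differed by 5.01 ± 0.61 (adjusted p = 6.56e-05, limma), while of its 2 other probesets 1 was called, their differences being −0.06 and 1.80.

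ATF4 itself was higher as mRNA, at 13.45, 14.05 and 14.28 in the N-9 arrays and 12.00, 12.29 and 12.55 in the HEC arrays, a fold of 3.15 (adjusted p = 1.03e-06, limma). SLC7A11, the cystine importer, had 11.10, 12.22 and 12.75 in the N-9 arrays and 8.69, 9.79 and 10.11 in the HEC arrays, a fold of 5.38 (adjusted p = 1.05e-05, limma). PPP1R15A, which ends the response by dephosphorylating eIF2α, differed by 3.21 at its brightest probeset and by 4.02 at the other. CTH, of the transsulfuration route to cysteine, was higher by 2.47, and SESN2, a stress-induced inhibitor of mTORC1, by 1.82. TRIB3, a pseudokinase target of CHOP, was higher by 1.81 with overlapping groups (adjusted p = 0.0136; 0.0523 with runs as a random block). DDIT4, another inhibitor of mTORC1, did not pass, since its differences by run were 0.33, 0.08 and −4.94.

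**Figure D1:**
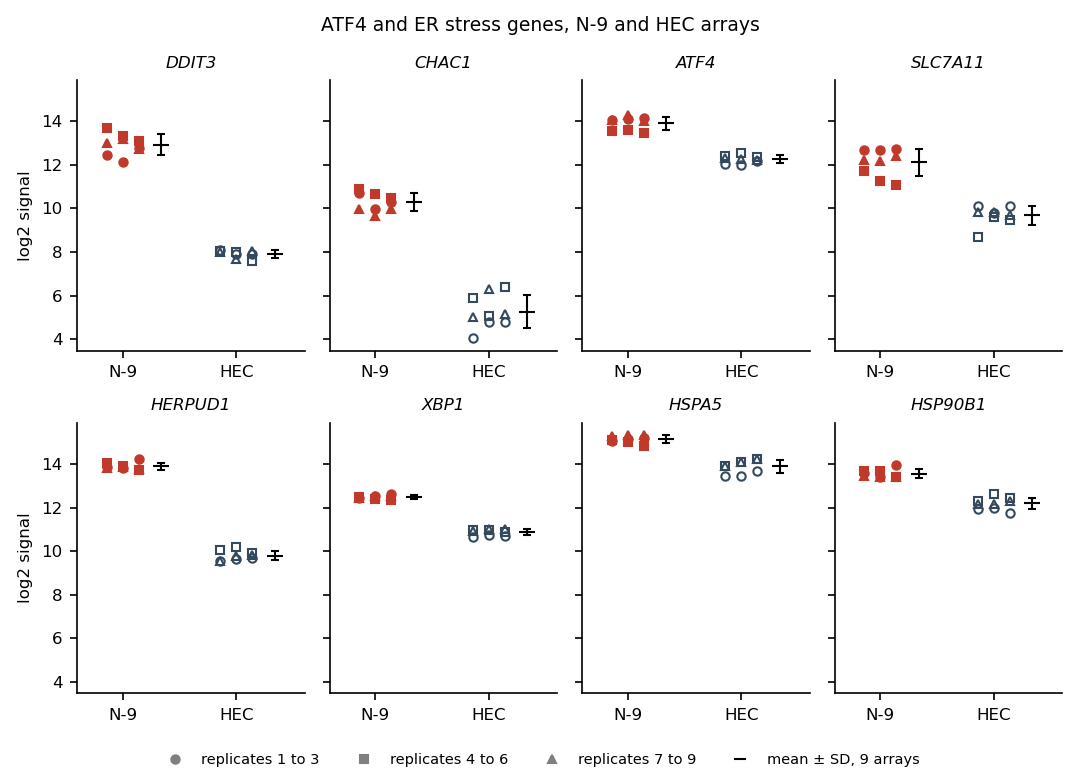
Log2 signal of 8 genes of the integrated stress response and the unfolded protein response in each of 9 N-9 arrays (left) and 9 HEC arrays (right), with the marker shape giving the run and bars giving mean ± SD. In all 8 panels the lowest N-9 array lies above the highest HEC array, with the gap widest for DDIT3, CHAC1 and HERPUD1. The 8 genes were picked with their values known, so their separation does not describe the lists. The groups lay apart, with N-9 higher, at 13 of 29 ATF4 list members and 6 of 28 ER chaperone list members, against 0.786% of all probesets.

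In the ER chaperone list 12 of 28 measured members were higher with N-9 and 0 lower (adjusted p under 0.05, limma), against 2.31% and 2.44% of all genes. The median log2 difference was 0.73. With runs as a random block 7 were higher, against 0.839% of all genes, and with the run as a fixed block 19, against 6.41%. Leaving out the first N-9 run gave 7, and leaving out the second gave 20. HERPUD1, which organizes the disposal of misfolded ER proteins, had 13.72, 13.87 and 14.26 in the N-9 arrays and 9.54, 9.78 and 10.20 in the HEC arrays. The 2 ranges were narrow and far apart. The difference was 4.10 ± 0.12, a fold of 17.1 (adjusted p = 4.89e-13, limma), and 4.36, 3.84 and 4.10 in the runs.

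XBP1, the transcription factor spliced by IRE1, had 12.36, 12.47 and 12.62 in the N-9 arrays and 10.65, 10.94 and 11.04 in the HEC arrays, a fold of 3.03 (adjusted p = 2e-08, limma). The arrays do not separate its spliced and unspliced forms here. HSPA5, the main ER chaperone BiP, had 14.84, 15.18 and 15.34 in the N-9 arrays and 13.44, 13.94 and 14.24 in the HEC arrays, a fold of 2.39 (adjusted p = 2.69e-05, limma). HSP90B1, the ER form of HSP90, was higher 2.58-fold, and SDF2L1, a cofactor of BiP, 3.85-fold. The sensors ERN1 and EIF2AK3 were higher by 1.15 and 1.12 on the log2 scale (adjusted p = 0.0211 and 0.0117, limma), with overlapping groups and an adjusted p of 0.171 and 0.0577 in the random block fit, and ERN1 differed by −0.02 in the second run. ERO1B, an ER oxidase, differed by 1.45 and did not pass (adjusted p = 0.0643, limma). DNAJB9, a BiP co-chaperone, depended on the probeset, since 2 of its 3 were higher by 4.18 and 3.11, while the brightest differed by 0.64, with 3.53, 1.71 and −3.32 in the runs (adjusted p = 0.825, limma).

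The promoters of these genes are shown because they carry the elements through which ATF6 and ATF4 are known to act. The first set holds the ER stress element, CCAAT and CCACG with 9 bases between them, in capitals, taken from the 250 bases before the start of each gene (RefSeq, GRCh38.p14, gene strand, 5′ to 3′).
HSPA5, chr9:125241366-125241434, minus strand: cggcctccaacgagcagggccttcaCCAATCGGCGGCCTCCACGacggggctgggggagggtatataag
HSP90B1, chr12:103930191-103930259, plus strand: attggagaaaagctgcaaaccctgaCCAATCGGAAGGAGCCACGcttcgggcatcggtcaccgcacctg
XBP1, chr22:28800578-28800646, minus strand: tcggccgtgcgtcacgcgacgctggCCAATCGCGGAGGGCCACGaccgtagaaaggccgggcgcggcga
Read on both strands, the element stood in 7 of 26 promoters of the ER chaperone list (26.9%), against 22 of all 27305 promoters (0.0806%) and 16 of the 15382 of genes with a probeset (0.104%).

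The second set holds the C/EBP-ATF element, TGATG and AA with any base between them, found here on the opposite strand and in capitals.
CHAC1, chr15:40953237-40953294, plus strand: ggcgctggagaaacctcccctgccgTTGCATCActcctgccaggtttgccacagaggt
HERPUD1, chr16:56931941-56931998, plus strand: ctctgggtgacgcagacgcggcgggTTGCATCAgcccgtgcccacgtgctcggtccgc
AARS1, chr16:70289661-70289718, minus strand: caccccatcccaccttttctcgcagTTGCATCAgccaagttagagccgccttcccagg
AARS1, the alanyl-tRNA synthetase, was higher by 1.00 in N-9 arrays. The element stood in 4 of 24 promoters of the ATF4 list (16.7%), in 14 of 311 promoters of genes called higher (4.5%), in 0 of 185 of genes called lower, in 2.31% of those with a probeset and in 3.19% of all promoters. A match describes letters in a window and says nothing about binding.

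Immediate early genes formed the next group. Of 25 measured AP-1, EGR, NR4A and other immediate early genes 14 were higher with N-9 and 0 lower (adjusted p under 0.05, limma), against 2.31% and 2.44% of all genes. The median was 1.43, and 11 were counted with runs as a random block, against 0.839% of all genes. ATF3, a stress-induced repressor of the AP-1 type, had 10.02, 10.64 and 14.53 in the N-9 arrays and 6.72, 7.79 and 8.21 in the HEC arrays. Its difference was 4.18 ± 0.63 (adjusted p = 0.000661, limma) and was uneven, at 2.59, 7.21 and 2.75 in the runs. FOS had 10.13, 10.76 and 13.65 in the N-9 arrays and 7.25, 8.46 and 9.78 in the HEC arrays, a fold of 8.28 (adjusted p = 0.00481, limma). EGR1, a zinc-finger factor induced by ERK, had 12.06, 12.38 and 13.76 in the N-9 arrays and 8.88, 9.12 and 10.43 in the HEC arrays at the probeset with the largest difference. That fold was 9.78 (adjusted p = 6.43e-06, limma), and the 2 other EGR1 probesets were higher by 1.82 and 2.27.

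CCN2, a matricellular growth factor, was higher by 3.82, EGR3 by 2.57 and KLF4, a factor of epidermal differentiation, by 1.84. NR4A1, an orphan nuclear receptor, was higher by 3.34 (adjusted p = 0.00601, limma; 0.107 with runs as a random block). MYC, at a log2 difference of 0.08 ± 0.17, showed no detectable change.

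Genes that damp MAP kinase signalling were split. DUSP1, the phosphatase that inactivates p38 and JNK, had 13.67, 13.93 and 14.71 in the N-9 arrays and 9.55, 10.02 and 10.61 in the HEC arrays at its brightest probeset. This was a fold of 16.7 (adjusted p = 3.87e-10, limma), and both other DUSP1 probesets were called in the same direction. DUSP10 was higher by 3.22 and DUSP5 by 1.70. SPRY2, a Sprouty inhibitor of receptor signalling, was higher by 0.95, while SPRY1 was lower, with a difference of −0.82 (adjusted p under 0.05, limma). Over the 15 genes of this list 4 were higher and 1 lower, against 2.31% and 2.44% of all genes. The median was 0.14, and the lower member did not pass with runs as a random block or when any 1 of 10 arrays was left out.

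HBEGF, a ligand of the EGF receptor, had 11.79, 12.14 and 13.04 in the N-9 arrays and 8.15, 8.76 and 9.30 in the HEC arrays. The groups lay more than 2 log2 units apart, and the fold was 11.8 (adjusted p = 3.52e-09, limma). Of 9 measured ligands and receptors 2 were higher, against 2.31% of all genes. The second was EREG, at 1.54 (adjusted p = 0.018, limma, and 0.0879 with runs as a random block).

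The first sequence below carries a CArG box in EGR1, the site of serum response factor, and the other 2 carry the cAMP response element TGACGTCA, in capitals (same source, build and direction).
EGR1, chr5:138465371-138465430, plus strand: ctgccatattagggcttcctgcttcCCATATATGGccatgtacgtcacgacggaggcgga
DUSP1, chr5:172771288-172771345, minus strand: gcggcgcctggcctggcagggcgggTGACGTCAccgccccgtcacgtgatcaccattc
PPP1R15A, chr19:48872338-48872395, plus strand: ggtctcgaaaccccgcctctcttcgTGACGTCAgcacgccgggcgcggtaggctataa
The CArG box stood in 2 of 18 immediate early promoters (11.1%) and in 1.14% both of all promoters and of those with a probeset. The cAMP response element stood in 16 of 311 promoters of genes called higher (5.14%), 4 of 185 of genes called lower (2.16%), 366 of 15382 of genes with a probeset (2.38%) and 1.77% of all promoters.

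In the study's qPCR, fold changes were given relative to growth medium, and HEC was the reference for the p-values. Of the 8 genes measured by qPCR, 7 were higher in N-9 arrays at the brightest probeset (adjusted p under 0.05, limma). The median log2 difference of the 8 genes was 2.90. Since these genes were picked on arrays of this series, their count is not independent evidence. CCL20, the chemokine that draws Langerhans-type dendritic cells, had 8.56, 9.22 and 10.45 in the N-9 arrays and 3.05, 4.10 and 7.38 in the HEC arrays. All 9 N-9 values were above all HEC values, which were dim on average and whose highest came from the third run. The difference was 4.92 ± 0.49 (adjusted p = 6.43e-06, limma), or 5.80, 6.07 and 2.87 by run.

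CXCL8, the neutrophil chemokine IL-8, had 9.29, 12.84 and 13.89 in the N-9 arrays and 7.00, 8.09 and 8.84 in the HEC arrays. The fold was 18.3 (adjusted p = 0.000331, limma), but the N-9 arrays of the first run stood well below those of the other runs, and the differences were 1.78, 6.45 and 4.34. CXCL2 had 8.95, 11.07 and 12.79 in the N-9 arrays and 7.16, 8.23 and 8.53 in the HEC arrays, a fold of 8.35 (adjusted p = 0.000375, limma). CXCL3, its close relative, was higher 8.05-fold, with groups that did not overlap. CXCL2 and CXCL3 share much of their sequence, and probesets may read both.

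PTGS2, the inducible cyclooxygenase COX-2, had 12.43, 13.28 and 14.23 in the N-9 arrays and 9.80, 10.09 and 11.75 in the HEC arrays. It was higher 6.93-fold (adjusted p = 4.3e-05, limma) and evenly so, with differences of 3.12, 2.82 and 2.44 by run. Its second probeset differed by 2.82. Of the 18 genes of prostaglandin synthesis, breakdown and reception only PTGS2 and PTGER4, the EP4 receptor, passed, PTGER4 at 2.27. Over all genes 2.31% passed as higher. OLR1, a scavenger receptor for oxidized LDL, had 9.90, 10.19 and 11.12 in the N-9 arrays and 7.83, 8.72 and 9.70 in the HEC arrays, a fold of 3.03 (adjusted p = 0.00147, limma) with 0.45 in the third run.

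For both regulators that restrain NFkB the size of the difference depended on the probeset, and for CYLD the call did too. TNFAIP3, the ubiquitin-editing enzyme A20, had 10.91, 11.59 and 13.46 in the N-9 arrays and 10.24, 10.40 and 10.99 in the HEC arrays at its brightest probeset. Those groups overlapped, and the difference was 1.48 (adjusted p = 0.0117, limma; 0.0667 with runs as a random block). At its other probeset the difference was 2.38 without overlap (adjusted p = 0.00101, limma). CYLD, a deubiquitinase, was higher by 3.78 at the probeset the study used, with 8.23, 8.88 and 9.58 in the N-9 arrays and 4.41, 4.88 and 7.10, mostly dim, in the HEC arrays (adjusted p = 1.03e-06, limma). Its 6 other probesets differed by 0.12 to 0.90 and 0 of them was called, the brightest at 0.70 (adjusted p = 0.0669, limma). In the study's qPCR, CYLD was the only selected gene without significant upregulation.

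**Figure D2:**
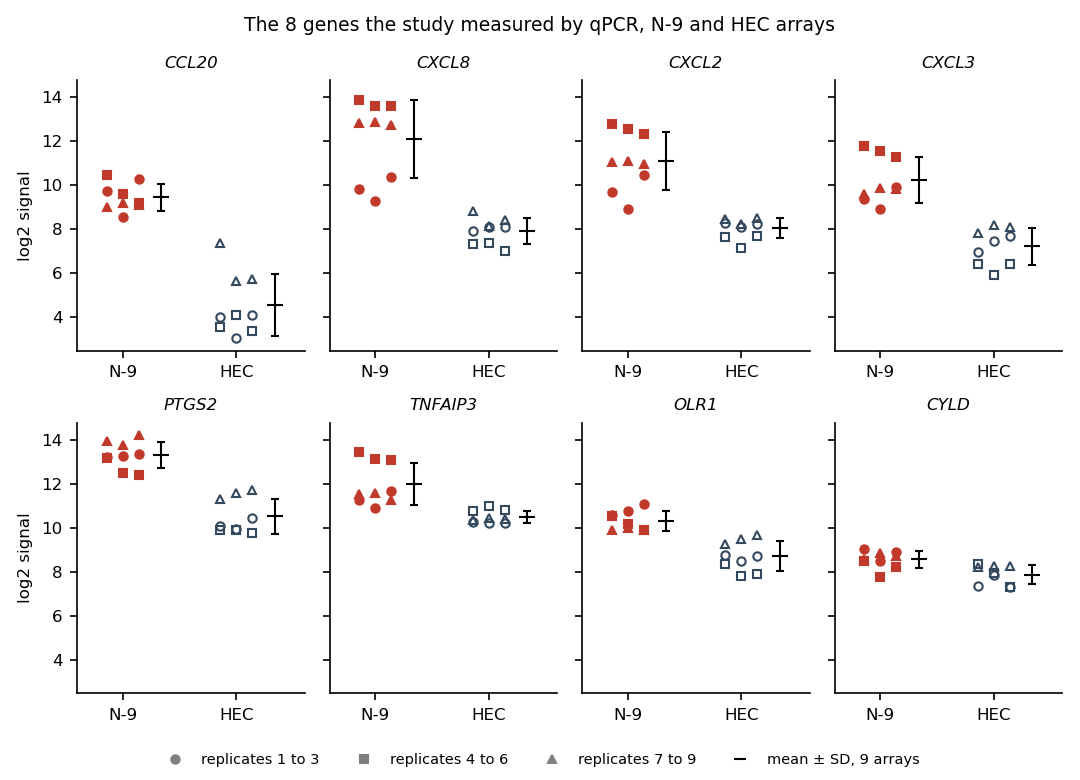
Log2 array signal of the 8 genes also measured by qPCR, each at its brightest probeset, in 9 N-9 arrays (left) and 9 HEC arrays (right). The marker shape gives the run and bars give mean ± SD. The groups lie apart for CCL20, CXCL8, CXCL2, CXCL3, PTGS2 and OLR1, and overlap for TNFAIP3 and CYLD.

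Among 18 chemokines 5 were higher and 1 was lower, against 2.31% and 2.44% of all genes. The fifth of the higher ones was CXCL1 at 1.85 (adjusted p = 0.0325, limma, and 0.159 with runs as a random block). Of 28 cytokines and growth factors 8 were higher and 0 lower, against the same shares, with a median of 0.56. The count was 3 with runs as a random block, against 0.839% of all genes, and 5 without N-9 replicate 7, 8 or 9 or HEC replicate 5. VEGFA, the angiogenic growth factor, had 12.74, 13.37 and 13.72 in the N-9 arrays and 10.62, 10.80 and 10.96 in the HEC arrays, a fold of 5.82 (adjusted p = 4.65e-09, limma) with all 3 other probesets called higher. IL1A, an epithelial alarmin, was higher by 1.38 and IL11 by 1.59. TSLP, an epithelial cytokine, was higher by 3.22 from dim HEC signals, and FGF2 by 2.36, but in the random block fit their adjusted p was 0.0872 and 0.15. The adjusted p of FGF2 also went to 0.051 or above, up to 0.0553, when any of 8 single arrays was left out (N-9 replicates 1, 3, 7, 8 and 9 and HEC replicates 4, 5 and 6). IL6 did not pass, at 1.83 with −0.29, 4.33 and 1.45 in the runs (adjusted p = 0.106, limma).

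IL1RL1, the receptor ST2 of the alarmin IL-33, had the largest difference of the genes named by rule. It had 12.24, 12.82 and 14.06 in the N-9 arrays and 7.15, 7.94 and 8.40 in the HEC arrays, a fold of 36.2 (adjusted p = 2.98e-09, limma). Its 3 other probesets, of which 2 passed, differed by −0.02 to 1.10.

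Of 16 NFkB subunits, inhibitors and feedback genes 5 were higher, against 2.31% of all genes. The count was 0 with runs as a random block, 3 when any 1 of 9 arrays was left out, and 1 without the third HEC run. NFKBIA, the inhibitor that NFkB itself induces, differed by 1.23 and did not pass (adjusted p = 0.193, limma). Of the 20 genes the study grouped as discriminating proinflammatory compounds, its PIC-DGs, 13 were higher and 0 lower, against 2.31% and 2.44% of all genes. Their median was 1.92, and 9 were counted with runs as a random block, against 0.839% of all genes. That list too was chosen on arrays of this series. Beyond the genes above it held PRDM1, a transcriptional repressor of differentiation programmes, at 2.15, SPRR2B, a cornified envelope protein, at 3.16, SERPINB2, a plasminogen activator inhibitor, at 1.33, and KRT34 at 2.78. KRT34 missed the threshold in the random block fit (adjusted p = 0.156) and when N-9 replicate 1, 7, 8 or 9 or HEC replicate 4, 5 or 6 was left out (adjusted p = 0.0502 to 0.0652).

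These promoters, of 2 chemokines and of TNFAIP3 from the NFkB feedback list, are shown for their NFkB site, in capitals (same source, build and direction).
CXCL2, chr4:74099239-74099298, minus strand: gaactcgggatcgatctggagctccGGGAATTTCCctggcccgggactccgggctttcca
CCL20, chr2:227813738-227813797, plus strand: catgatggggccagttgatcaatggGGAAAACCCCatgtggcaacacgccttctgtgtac
TNFAIP3, chr6:137867167-137867226, plus strand: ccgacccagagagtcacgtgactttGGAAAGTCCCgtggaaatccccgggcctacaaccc
The site stood in 9 of 14 chemokine promoters (64.3%), against 9.57% of all promoters and 11.1% of those with a probeset. Among genes called higher it stood in 43 of 311 (13.8%), and among genes called lower in 34 of 185 (18.4%).

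Among interferon-stimulated genes the calls had the opposite sign. Of 27 measured genes 12 were lower with N-9 and 0 higher (adjusted p under 0.05, limma), against 2.44% and 2.31% of all genes, and the median log2 difference was −1.14. In 18 of the 27 the difference was negative in all 3 runs, and in 0 was it positive in all 3. With runs as a random block 9 passed, and with the run as a fixed block 18. When all 8 groups of the series were normalized and fitted together 3 passed, against 5.97% of all genes in that fit (4.41% as higher). Normalization and spread then both came from all groups, and the reason for the smaller count was not tested.

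IFI44L, an interferon-induced protein, had 6.33, 7.17 and 8.04 in the N-9 arrays and 9.34, 9.64 and 9.93 in the HEC arrays, 5.45-fold higher in HEC (adjusted p = 1.85e-06, limma; 0.193 in the fit of all groups). MX1, an antiviral GTPase, had 8.48, 8.78 and 8.89 in the N-9 arrays and 9.56, 11.57 and 12.12 in the HEC arrays, 5.16-fold higher in HEC (adjusted p = 0.00014, limma). IFI27 had 7.10, 8.35 and 8.78 in the N-9 arrays and 9.24, 10.38 and 11.34 in the HEC arrays, 4.31-fold higher in HEC (adjusted p = 0.000439, limma; 0.0548 in the fit of all groups). For each of these 3 genes all N-9 arrays lay below all HEC arrays.

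IFIT1, which binds viral RNA, had 9.93, 10.75 and 11.53 in the N-9 arrays and 11.68, 12.01 and 13.09 in the HEC arrays, with a difference of −1.40 (adjusted p = 0.00367, limma; 0.0631 with runs as a random block). MX2 was lower by 1.83 on the log2 scale (adjusted p = 0.0819 in the fit of all groups), and the oligoadenylate synthetases OAS1, OAS2 and OAS3, sensors of double-stranded RNA, differed by −1.50, −1.60 and −1.09. OAS3 missed the threshold in the random block fit (adjusted p = 0.0555). Outside the list, ZC3HAV1, the zinc-finger antiviral protein, was lower by 2.39. CXCL11, a chemokine induced by interferon, had 4.40, 6.06 and 6.70 in the N-9 arrays and 7.64, 7.90 and 8.68 in the HEC arrays at its brightest probeset, a difference of −2.06 (adjusted p = 0.00015, limma), with N-9 dim.

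**Figure D3:**
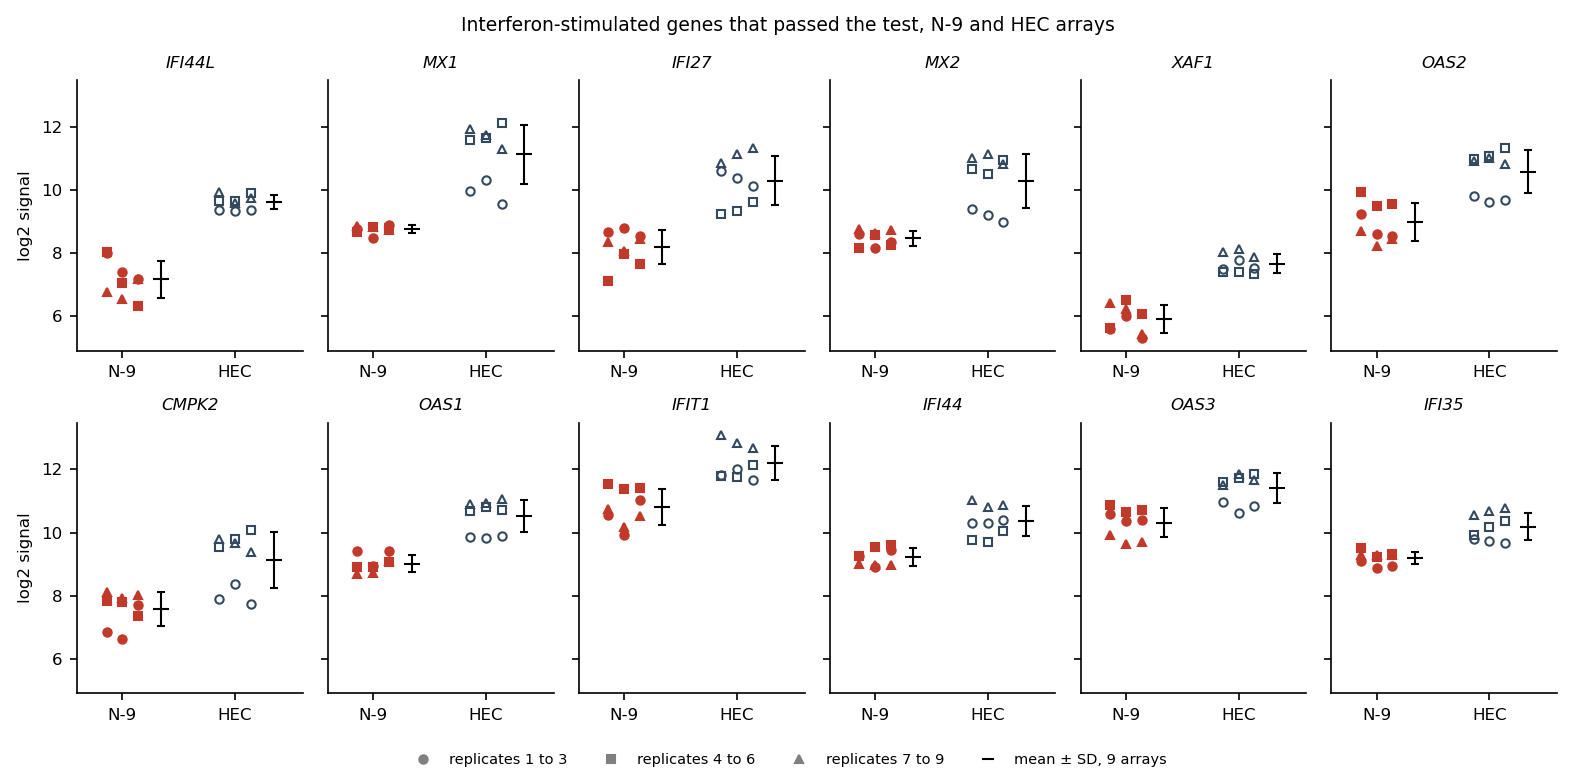
Log2 signal of the 12 interferon-stimulated genes that passed, in 9 N-9 arrays (left) and 9 HEC arrays (right), with the marker shape giving the run and bars giving mean ± SD. The N-9 mean is the lower one in all 12 panels, from 2.45 log2 units below for IFI44L to 0.99 below for IFI35, and the groups lie apart in 9 of them.

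The interferon-stimulated response element, a pair of GAAA with 2 bases between them, was added to the search after the values were seen. It is in capitals below (same source, build and direction).
IFIT1, chr10:89392495-89392554, plus strand: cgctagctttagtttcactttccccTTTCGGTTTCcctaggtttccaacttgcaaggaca
IFI27, chr14:94110616-94110675, plus strand: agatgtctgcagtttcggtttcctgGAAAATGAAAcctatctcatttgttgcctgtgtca
OAS3, chr12:112938306-112938365, plus strand: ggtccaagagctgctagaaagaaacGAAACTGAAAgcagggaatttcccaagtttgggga
It stood in 13 of 21 promoters of the list (61.9%), 12 of 185 of genes called lower (6.49%), 4 of 311 of genes called higher (1.29%), 2.48% of those with a probeset and 3.07% of all promoters.

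Outside that list, NAV1, of the neuron navigator family, had the largest decrease among the genes named by rule, at 3.48, 5.48 and 7.03 in the N-9 arrays and 7.43, 7.87 and 8.78 in the HEC arrays. The difference was −2.82 (adjusted p = 0.000719, limma), and 1 of its 7 other probesets was called in the same direction. CCND1, cyclin D1, which drives cells through G1, had 9.51, 10.30 and 10.86 in the N-9 arrays and 11.51, 11.68 and 12.07 in the HEC arrays, 2.94-fold higher in HEC (adjusted p = 1.51e-05, limma). CDKN1A, the cell cycle inhibitor p21, had the opposite sign, at 11.51, 12.36 and 12.85 in the N-9 arrays and 9.86, 10.13 and 10.43 in the HEC arrays, a fold of 4.36 (adjusted p = 2.75e-06, limma). GADD45A, a growth arrest gene, was higher 3.25-fold. Of 21 p53 targets 5 were higher and 1 lower, against 2.31% and 2.44% of all genes, and in the random block fit 4 and 0 passed. Of 24 replication genes 1 was higher, CDC6 at 1.39, and 1 lower, CCND1, which is near those shares. Of 16 measured apoptosis regulators of the BCL2 family 3 were higher and 0 lower, against the same 2.31% and 2.44%. The median of that family was 0.25, and 2 were higher with runs as a random block, against 0.839% of all genes. BCL2L11 and PMAIP1, the BH3-only death promoters BIM and NOXA, were higher by 1.51 and 1.35.

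Some matrix protease and barrier genes differed. Beside the counts here, 2.31% of all genes passed as higher and 2.44% as lower (0.839% and 0.415% with runs as a random block). Of 24 genes of matrix, proteases and plasminogen activation 5 were higher and 1 lower, TIMP2 at −0.76, which did not pass with runs as a random block or when any 1 of 12 arrays was left out. PLAUR, the urokinase receptor, had 11.35, 12.35 and 13.16 in the N-9 arrays and 9.29, 9.80 and 9.98 in the HEC arrays, a fold of 5.93 (adjusted p = 7.22e-06, limma). The stromelysins MMP10 and MMP3 were higher by 2.53 and 2.17, and the collagenase MMP1 by 1.72 (adjusted p = 0.00215, limma; 0.109 in the fit of all groups). Of 25 junction genes 3 were higher. The claudin CLDN4 was higher by 4.03 from dim HEC signals at its brightest probeset, while its other probeset differed by −0.52, and OCLN and CLDN1 were higher by 1.54 and 1.44 but missed the threshold in the random block fit (adjusted p = 0.0518 and 0.134). Of 28 cornified envelope genes 3 were higher, SPRR2B, SPRR3 at 1.66 and SCEL at 0.69, and 1 with runs as a random block, where SPRR3 was at an adjusted p of 0.104 and SCEL at 0.202. SCEL also lost its call when any 1 of 12 arrays was left out (adjusted p = 0.0503 to 0.0692). Of 22 genes of glycolysis and the hypoxia response 4 were higher and 1 lower (3 and 0 with runs as a random block), and SLC2A3, a glucose transporter, was higher by 2.25. Of 20 lysosome and autophagy genes 5 were higher (3 with runs as a random block) and 0 lower, and SQSTM1, the autophagy receptor p62, was higher by 1.79 at its brightest probeset.

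**Figure D4:**
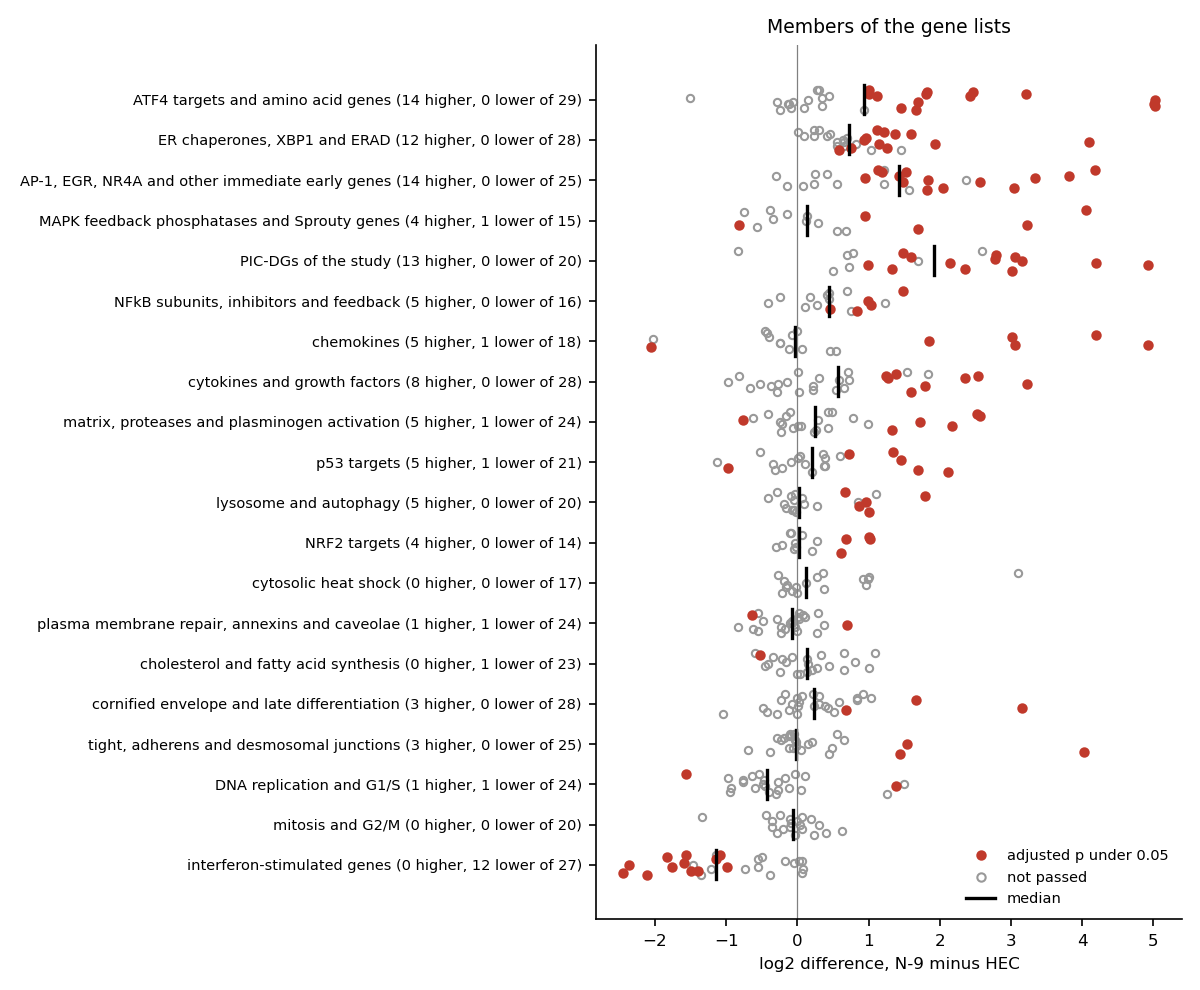
Log2 difference, N-9 minus HEC, of the measured members of 20 gene lists, each point a gene at its brightest probeset, filled red where the adjusted p was under 0.05 and with a black bar at the list median. The immediate early, ATF4 and ER chaperone lists lie mostly right of 0, with medians of 1.43, 0.94 and 0.73, and the interferon list mostly left, with a median of −1.14.

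In the lists of membrane repair and lipid genes the counts were near the shares over all genes, 2.31% as higher and 2.44% as lower. Of 24 plasma membrane repair, annexin and caveola genes 1 was higher, CHMP4C at 0.70, and 1 lower, PDCD6 at −0.64, and neither passed with runs as a random block. CHMP4C also lost its call without N-9 replicate 7, 8 or 9 or HEC replicate 4 or 5 (adjusted p = 0.0501 to 0.0515). Of 23 cholesterol and fatty acid genes 1 was lower, SQLE, at −0.53, and of 8 metallothionein and zinc export genes 1 was lower, MT1F, at −0.55. In the random block fit neither passed (adjusted p = 0.21 and 0.118). Of 14 NRF2 targets 4 were higher, with the thioredoxin reductase TXNRD1 at 1.02 and the haem oxygenase HMOX1 at 1.00 (adjusted p = 3.31e-05 and 0.00515, limma), and 1 of the 4 passed with runs as a random block, where HMOX1 was at 0.129, GCLC at 0.213 and FTL at 0.0538. GAPDH and ACTB differed by −0.06 and −0.05, and 0 of 7 reference genes passed.

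For some lists the runs disagreed. The median of 20 mitosis genes was −1.90, 1.51 and 0.24 in the 3 runs, and 0 passed. TOP2A, the topoisomerase of dividing cells, differed by −1.83, 2.59 and 0.44. The median of 24 replication genes was −1.51, 0.11 and 0.09. Cytosolic heat shock genes had medians of 0.08, 0.89 and −0.47, and 0 of 17 passed. HSPA6, the strictly stress-induced HSP70, had 7.56, 10.44 and 14.12 in the N-9 arrays and 6.84, 7.55 and 8.17 in the HEC arrays, with differences of 2.73, 6.95 and −0.39 and an adjusted p of 0.059 (limma). In contrast the interferon list had medians of −0.77, −0.81 and −1.60, and the ATF4 list 1.46, 0.36 and 0.62.

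**Figure D5:**
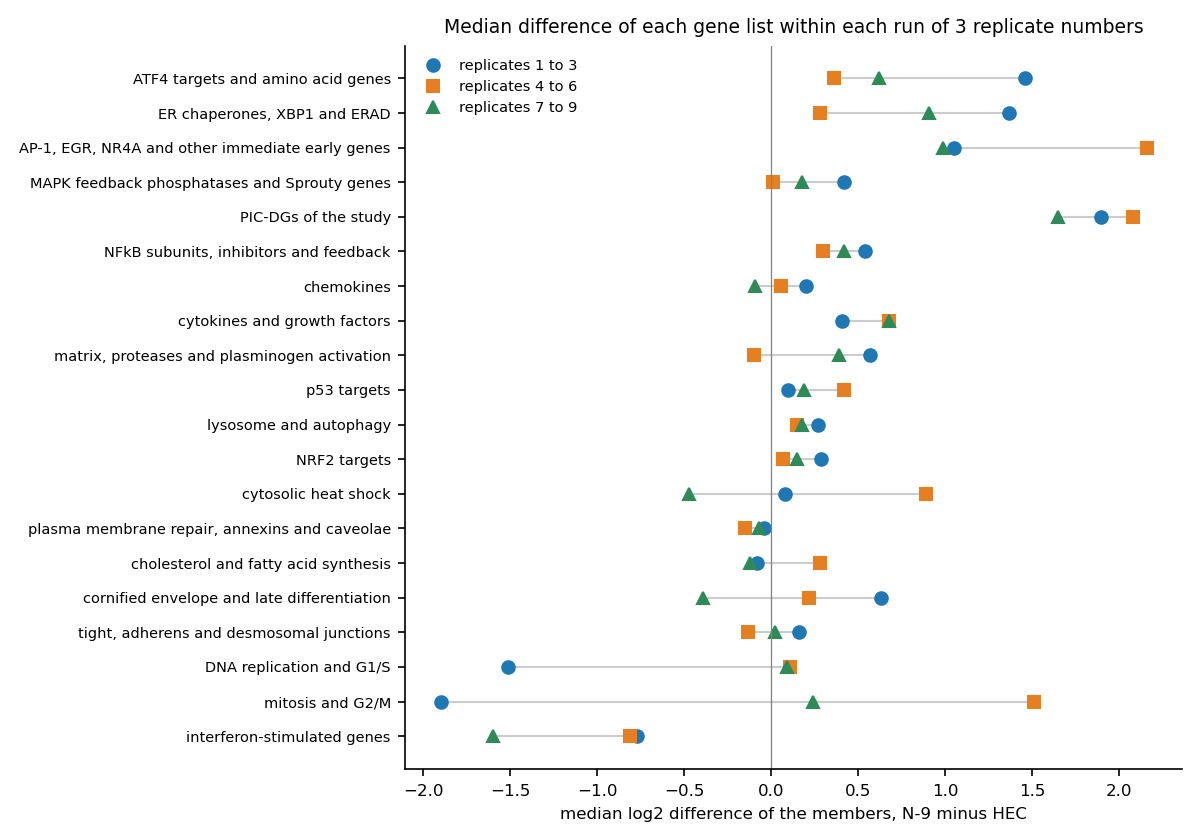
Median log2 difference, N-9 minus HEC, of gene lists in replicates 1 to 3, 4 to 6 and 7 to 9. The immediate early, ATF4 and ER chaperone lists are above 0 and the interferon list below 0 in all 3 runs, whereas the mitosis list is at −1.90, 1.51 and 0.24.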

How the data were processed

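One array was hybridized per sample of treated Vk2/E6E7 cells. The deposited values are log2 signals, one per probeset of the U133 Plus 2.0 array. The authors' processing notes name MAS5 and GCOS 1.3, whereas their methods describe RMA in GeneSpring; the deposited values look like MAS5 signals with a trimmed mean common to all arrays, and low signals are then noisy. Groups were taken from the sample titles.

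The 18 arrays were quantile normalized, 62 control probesets of 54675 were left out, and 54613 were fitted in limma 3.58.1 (R 4.3.3) with Benjamini-Hochberg adjustment and no pseudocount. A probeset was called at an adjusted p under 0.05 and a fold over 2, and members of lists were counted at the adjusted p alone. The script was tested on simulated data. Platform annotation gave 1 gene for 41091 probesets, several for 1801 and none listed for 11721, and a gene was represented by the brightest probeset that names it alone, with 29011 probesets dim in both groups. Two-sided exact permutation tests were used for 3 technical measures.

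Genes named by rule were the 20 that rose and the 15 that fell most among called, non-overlapping genes, 4 per list with the largest difference, and the study's own panel, of which 1 gene is not reported here. Others, among them ATF4, HSPA5, SLC7A11, IFIT1 and IL11, were named after their values were seen, for their roles. The members and lists were chosen with earlier results of these data known. No 2 arrays held identical values, and correlations between arrays were 0.865 to 0.943. The number of arrays limits the precision.

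Same-numbered N-9 and HEC arrays deviated from their group means together, with correlations of 0.233 to 0.493 in all 9 pairs. This pairing comes from the data and not from the labels, and every N-9 array correlated best with an HEC array of its own run, though not always of its own number. Alternatives were other normalizations, filters and offsets, run and replicate blocks, an analysis of variance over all groups, and leaving out each array or run. The motif search covered 250 bases before each start on both strands.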

Additional observations from a re-analysis of the deposited data

Results flagged for a closer look

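Of 272 sets of 9 arrays examined for the named genes, 5 held an array that stood apart from the other 8 by a Dixon gap, each of them the lowest, where chance gives about 1 in 20. CXCL11 was at 1.51 in N-9 replicate 2 at its second probeset, against a group median of 6.28. In the HEC group IL6 was at 5.83 in replicate 6 (median 6.96), SLC2A3 at 6.83 in replicate 4 (median 8.75) and GUSB, a reference gene, at 9.71 in replicate 7 (median 10.21). GAPDH was at 14.27 in N-9 replicate 9 (median 14.76), an array of the run whose GAPDH 3′ minus 5′ signal averaged 0.36. The part of these arrays in the results was not tested beyond leaving each out in turn.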

How the results depend on the processing

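Leaving out each array in turn gave 526 to 605 probesets higher and 259 to 342 lower. The called counts moved by over 1.5 times under several settings, given here as higher and lower with N-9. They were 925 and 657 with all 8 groups fitted together, 1068 and 835 by the methods' analysis of variance, 256 and 78 with runs as a random block, and 1016 and 655 with the run as a fixed replicate block. Without the first N-9 run 640 were lower, and without the second 1029 were higher and 639 lower. Within single runs the counts were 1148 and 1161, 1562 and 1558, and 1645 and 1164. On run means, a setting chosen after seeing the data, with the run as a replicate block, they were 0 and 0. The cause of these shifts was not tested. The counts moved less, to 681 and 411, with the replicate number as a fixed replicate block. Higher calls made up 65.7% of the main calls, 62.7% with no normalization and 58.5% in the joint fit.

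Among 136 named genes, 111 kept direction and side of the threshold with runs as a random block, 113 with the run as a fixed replicate block and 129 with the replicate number as one, where PDCD6 and GCLC lost their call. Some genes that did not pass changed sign. Without the first N-9 run these were CAVIN2 (0.64), CAV1 (0.05) and AURKA (0.09), and without the second ERBB3 (−0.01), CRYAB (−0.37), SREBF1 (−0.15), TOP2A (−0.20), GUSB (−0.00) and COL8A1 (−0.43). Without the third they were E2F1 (−0.50) and GAPDH (0.04), without the second HEC run TOP2A (−0.10) and GAPDH (0.01), and without the third HEC run ERBB3 (−0.08) and GUSB (−0.03). With no normalization GAPDH was at 0.11 and ACTB at 0.08. Signals under a log2 level of 7 are near the array's background and limit the folds of dim genes.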
